A study of Mus musculus with 24 samples.

Results

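The genes described here are a set of 45 mouse genes that copy DNA and drive cells through mitosis, measured in whole liver. They were chosen by name, without a threshold on any value but with earlier results of these data known. Each was found by the gene symbol that the platform annotation gives to a row of the expression table. Of the 45, 44 had a row and Ccnb1 was not analysed here. The 44 members stood among 24704 named genes that were tested together, and 28 of the 44 had a mean signal above the median gene, which lay at 3.83 on the log2 scale.

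Livers came from HepCAV1ko mice, in which a Cre recombinase driven by the albumin promoter removes floxed Cav1 (caveolin-1, a membrane scaffold protein) from hepatocytes, and from HepCAV1wt mice, littermates with floxed Cav1 and no Cre, and every group held 3 arrays. Mice of both genotypes and both sexes received either the MCD diet, a fatty liver model feed without methionine or choline, or a control diet that contains both. The 8 groups were thus HepCAV1ko males, HepCAV1ko females, HepCAV1wt males and HepCAV1wt females, each on the MCD diet and on the control diet, in mice fed for 4 weeks, from 8 to 12 weeks of age. Cells of the liver other than hepatocytes keep Cav1 in HepCAV1ko mice, and the labels do not say whether each array was a mouse of its own, so the p-values measure the spread between arrays.

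In a dividing cell the helicase made of Mcm2 to Mcm7 is loaded onto replication origins by Cdc6 and Cdt1, switched on by Cdc45, the GINS complex and the kinase regulator Dbf4, and followed by polymerases that need deoxynucleotides. Cyclin D1 and cyclin E release E2F transcription factors from the retinoblastoma family at the end of the first gap phase, and cyclin A, cyclin B and Cdk1 then carry the cell into mitosis. Adult hepatocytes are mostly out of the cell cycle and return to it after injury or loss of tissue, while immune cells and fibroblast-like cells that enter an injured liver can divide as well. Whole-liver RNA does not separate these cells: fewer dividing cells and less of a transcript per cell cannot be told apart.

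Replication and mitosis genes are known to carry different short elements in their promoters, and both kinds were present among the members. RefSeq promoter windows of 300 bases, which hold 250 bases before and 50 after a gene's start on build GRCm38.p6, matched 35 of the 44 members. The E2F motif (TTTCCCGC, TTTGGCGC, TTTCGCGC or TTTGCCGC on either strand) was found in 9 of the 20 members of the replication and deoxynucleotide lists with a window (45.0%) and in 1 of 12 mitosis members, Cdk1 (8.33%), beside 2.6% of all 27025 genes with a window. The CHR element (TTTGAA or TTCGAA) together with a CCAAT box (CCAAT), again on either strand, was found in 10 of the 12 mitosis members (83.3%) and in 4 of the 20 replication and deoxynucleotide members (20.0%), beside 8.61% of all genes. Some overlap between motifs can occur, a match describes letters only, and no binding was measured. The promoters of 5 members on which the results below turn are printed 5′ to 3′ on the strand of the gene, with every match to these motifs in capitals.
Mcm6, minus strand, chr1:128359656-128359955: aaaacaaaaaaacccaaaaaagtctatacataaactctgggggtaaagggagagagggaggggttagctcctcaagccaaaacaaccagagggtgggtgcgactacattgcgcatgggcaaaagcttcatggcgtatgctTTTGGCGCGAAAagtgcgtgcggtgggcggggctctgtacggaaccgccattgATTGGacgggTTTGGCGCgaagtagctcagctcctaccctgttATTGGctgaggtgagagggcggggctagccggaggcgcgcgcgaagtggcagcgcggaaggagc
Top2a, minus strand, chr11:99024140-99024439: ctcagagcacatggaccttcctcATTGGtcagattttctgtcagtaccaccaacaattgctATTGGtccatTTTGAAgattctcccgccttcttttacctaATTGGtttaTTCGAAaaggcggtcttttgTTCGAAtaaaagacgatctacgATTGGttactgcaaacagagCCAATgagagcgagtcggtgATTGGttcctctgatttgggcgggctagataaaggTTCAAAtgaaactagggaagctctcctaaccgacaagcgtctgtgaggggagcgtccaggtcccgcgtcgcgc
Plk1, plus strand, chr7:122159185-122159484: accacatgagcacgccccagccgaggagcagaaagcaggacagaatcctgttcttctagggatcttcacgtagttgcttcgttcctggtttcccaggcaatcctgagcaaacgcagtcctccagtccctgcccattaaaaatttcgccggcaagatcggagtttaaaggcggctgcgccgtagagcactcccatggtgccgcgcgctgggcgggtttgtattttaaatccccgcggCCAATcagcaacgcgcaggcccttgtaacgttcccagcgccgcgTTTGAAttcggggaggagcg
Mcm10, minus strand, chr2:5012742-5013041: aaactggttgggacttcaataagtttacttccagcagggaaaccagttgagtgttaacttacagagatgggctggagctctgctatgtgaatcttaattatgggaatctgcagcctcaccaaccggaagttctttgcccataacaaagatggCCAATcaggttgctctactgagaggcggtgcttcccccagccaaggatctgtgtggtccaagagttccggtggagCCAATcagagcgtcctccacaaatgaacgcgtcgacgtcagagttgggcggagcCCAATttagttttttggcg
Tk1, minus strand, chr11:117825965-117826264: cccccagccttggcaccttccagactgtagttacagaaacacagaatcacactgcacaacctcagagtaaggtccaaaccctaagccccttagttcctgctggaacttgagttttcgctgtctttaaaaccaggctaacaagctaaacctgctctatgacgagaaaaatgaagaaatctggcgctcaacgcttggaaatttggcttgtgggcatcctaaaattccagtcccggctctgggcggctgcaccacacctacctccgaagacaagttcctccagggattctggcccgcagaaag
Mcm6, the replication gene with the largest diet difference, had E2F matches starting at -110, -106 and -47 relative to its start, and those at -110 and -106 overlapped. Top2a and Plk1, mitosis genes whose diet difference depended on sex, had the CHR element with CCAAT boxes. The Mcm10 window held 3 CCAAT boxes and neither of the other motifs, and the Tk1 window held none of the 3. These were the 2 members that were lower on the MCD diet, but members that rose in the average had like windows. Those of Prim1, Pcna, Rrm1 and Cenpe also held CCAAT boxes alone, and that of Rfc4 held none of the 3. The Mcm10 window ends in tttggcg, the first letters of the motif TTTGGCGC, so a match across its edge would be missed.

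The arrays resembled each other within groups, with correlations from 0.981 to 0.991 over all named genes, and the sex markers matched the labelled sex in 24 of 24 arrays. Cav1 itself lay between 3.51 and 4.36 on the 12 HepCAV1ko arrays and between 3.84 and 4.94 on the 12 HepCAV1wt arrays, and the ranges overlapped. Its difference between genotypes was -0.55 ± 0.17 (SE, adjusted p = 0.894) on the control diet and -0.07 ± 0.17 (SE, adjusted p = 1.0) on the MCD diet, at unadjusted p of 0.00338 and 0.702, and genotype is taken from the labels here. Hepatocyte markers were bright on all arrays. Their summed linear signal spanned 59100 to 64300 in the 4 MCD groups and 56000 to 62500 in the 4 control groups.

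Replication and mitosis genes were upregulated by the MCD diet in males of both genotypes, and far fewer passed in females. Each difference is the mean log2 signal on the MCD diet minus that on the control diet, with adjusted p under 0.05 in limma called a change. In HepCAV1ko males 25 of 44 members rose and 1 fell, while 3.62% of all genes rose and 3.02% fell. In HepCAV1wt males 19 members rose and 1 fell, beside 2.28% and 2.09% of all genes. In HepCAV1ko females 1 member, Ccnd1, rose and none fell, beside 0.765% and 0.878% of all genes. In HepCAV1wt females 4 members rose, Ccnd1, Mcm2, Mcm3 and Mcm5, and none fell, beside 2.59% and 2.34% of all genes. At an unadjusted p under 0.05, 10 members were higher in HepCAV1ko females, beside 5.67% of all genes. In HepCAV1wt females 13 were higher and 1, Tk1, was lower at that threshold, beside 8.37% and 8.79% of all genes.

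Averaged over genotype and sex, 31 members rose, 2 fell (Mcm10 and Tk1) and 11 did not pass, beside 9.79% of all genes that rose and 9.39% that fell. The median member differed by 0.55 between the diets and the median gene of all by -0.01. By group, the median member differed by 0.84 in HepCAV1ko males, 0.69 in HepCAV1wt males, 0.25 in HepCAV1ko females and 0.31 in HepCAV1wt females, and the medians of all genes lay between -0.02 and -0.01. Of the 19 members that rose in HepCAV1wt males, 17 also rose in HepCAV1ko males (89.5% of the first list and 68.0% of the second). Cdk1 and Pole passed in HepCAV1wt males alone, and Aurka, Cdc6, Cenpe, Dbf4, Gins1, Gins2, Rfc3 and Rfc4 in HepCAV1ko males alone; no member differed between genotypes by the test of that difference given further on. Bub1b, Ccnb2, Cdc45 and Foxm1 passed in no single group and rose in the average.

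The ranges of the same arrays were also compared without a fit. More members were separated than passed the fit in every group, 17 against 4 in HepCAV1wt females. All 3 MCD arrays lay above all 3 control arrays for 32 members in HepCAV1ko males (11.4% of all genes), for 30 in HepCAV1wt males (10.3% of all genes), for 6 in HepCAV1ko females (7.28% of all genes) and for 17 in HepCAV1wt females (9.85% of all genes). Ccnd1 and Mcm6 were separated in this way in all 4 combinations of genotype and sex. Leaving out single arrays moved the counts of called members. Without replicate 1 or without replicate 3 of the MCD arrays, the calls in HepCAV1ko males numbered 17 against 26 with all arrays, both directions counted. The 4 calls in HepCAV1wt females became 2 without MCD replicate 2, control replicate 1 or control replicate 3, and 1 without MCD replicate 1. In HepCAV1ko females the count was 6 without MCD replicate 3 and 0 without MCD replicate 1, MCD replicate 2 or control replicate 3. Calls over all genes moved too. In HepCAV1wt females 639 of all genes rose and 577 fell with all arrays. Without control replicate 1 these were 351 and 348, and without control replicate 3 they were 431 and 465.

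**Figure D1:**
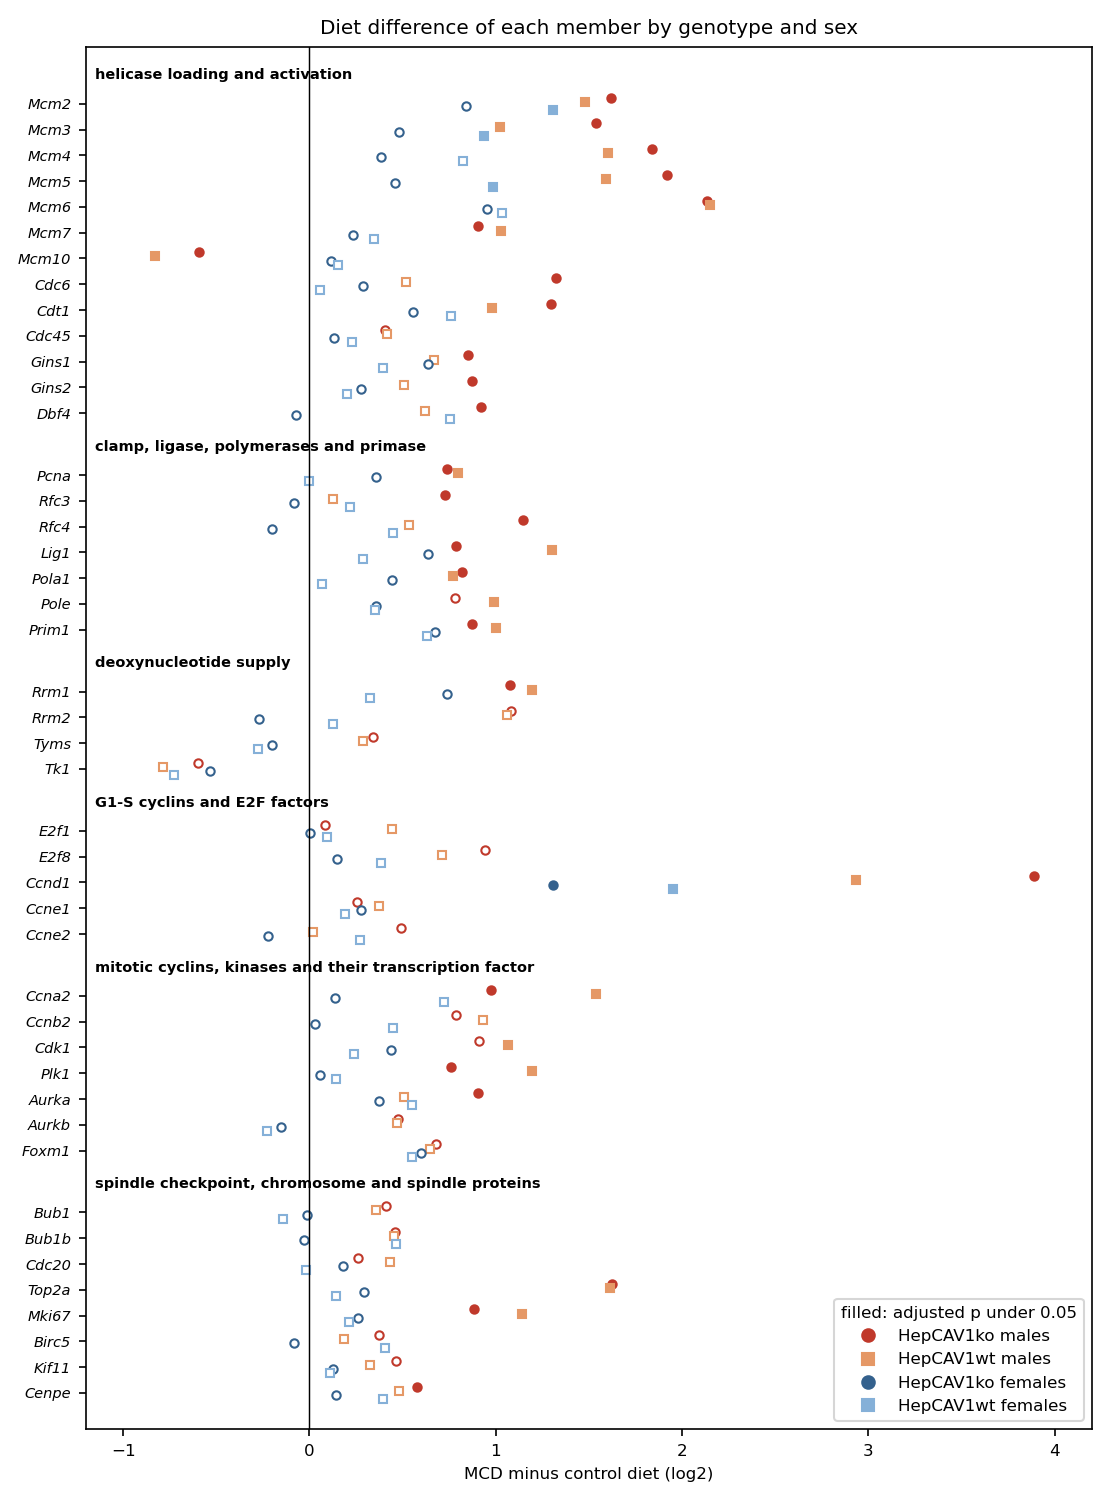
Difference between MCD and control diet (x axis, log2) for each of the 44 members (y axis, grouped by role) in HepCAV1ko males, HepCAV1wt males, HepCAV1ko females and HepCAV1wt females; filled symbols passed at adjusted p under 0.05. Ccnd1 lies farthest right in all 4 groups, Mcm10 lies below 0 in males only, and 25 and 19 members that rose are filled in HepCAV1ko and HepCAV1wt males against 1 and 4 in females.

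The loading and activation of the replicative helicase was the longest of the role lists and had the most calls. Of its 13 members 12 rose in the average and 1 fell, with a median difference of 0.64. Mcm6, a helicase subunit (chr1:128331575-128359705 on GRCm38.p6), had log2 values of 6.79, 5.75 and 7.05 in MCD-fed HepCAV1ko males, against 4.22, 4.49 and 4.48 in those on control diet. It had 6.15, 6.82 and 6.07 in MCD-fed HepCAV1wt males, against 4.75, 4.12 and 3.72 on control diet. In females it had 5.99, 5.63 and 4.98 on MCD against 4.35, 4.91 and 4.48 on control diet in HepCAV1ko livers, and 5.03, 6.03 and 5.57 against 4.23, 4.48 and 4.84 in HepCAV1wt livers. MCD arrays were above control arrays in every combination, by a wide gap in males and a narrow one in females. The difference was 2.14 ± 0.33 (SE), adjusted p = 0.000247, in HepCAV1ko males and 2.15 ± 0.33 (SE), adjusted p = 0.000337, in HepCAV1wt males, each more than 4-fold. In females Mcm6 differed by 0.95 ± 0.33 (SE), adjusted p = 0.192, in HepCAV1ko and by 1.03 ± 0.33 (SE), adjusted p = 0.0775, in HepCAV1wt.

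Mcm2, a second subunit of the helicase, had 6.27, 5.997 and 6.64 in MCD-fed HepCAV1ko males, against 4.32, 4.72 and 5.01 on control diet, and 5.81, 6.34 and 5.62 in MCD-fed HepCAV1wt males, against 4.64, 4.39 and 4.32. In HepCAV1ko females it had 6.29, 5.77 and 4.73 on MCD against 4.89, 4.73 and 4.65, and in HepCAV1wt females 5.70, 5.67 and 5.03 against 4.16, 4.15 and 4.17. In females the lowest MCD array was replicate 3 in both genotypes, and only in HepCAV1ko females did it lie among the control arrays. Mcm2 rose by 1.62 ± 0.28 (SE), adjusted p = 0.000912, in HepCAV1ko males, by 1.48 ± 0.28 (SE), adjusted p = 0.00284, in HepCAV1wt males and by 1.31 ± 0.28 (SE), adjusted p = 0.00823, in HepCAV1wt females, and differed by 0.84 ± 0.28 (SE), adjusted p = 0.174, in HepCAV1ko females.

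Mcm5, also a helicase subunit, had 5.95, 5.46 and 6.65 in MCD-fed HepCAV1ko males, against 4.40, 4.12 and 3.79 on control diet, and 5.62, 6.16 and 6.06 against 4.49, 4.12 and 4.46 in HepCAV1wt males. In HepCAV1ko females it had 5.37, 5.05 and 4.29 on MCD against 4.31, 4.56 and 4.46, and in HepCAV1wt females 5.37, 5.21 and 5.02 against 4.22, 4.36 and 4.06. Replicate 3 of the MCD-fed HepCAV1ko females was again at the level of the control arrays, just below the lowest of them. The rise was 1.92 ± 0.26 (SE), adjusted p = 5.33e-05, in HepCAV1ko males, 1.59 ± 0.26 (SE), adjusted p = 0.000583, in HepCAV1wt males and 0.99 ± 0.26 (SE), adjusted p = 0.0274, in HepCAV1wt females. Mcm3 and Mcm4 behaved alike, with averaged rises of 0.99 ± 0.13 and 1.16 ± 0.16 (SE), adjusted p = 6.57e-06 and 1.05e-05. Mcm7, the sixth subunit, whose gene also hosts microRNAs and overlaps Ap4m1 over 91 bases, had 6.08, 5.77 and 6.46 in MCD-fed HepCAV1ko males, against 4.81, 5.52 and 5.27 on control diet, and 6.10, 6.31 and 6.36 against 5.18, 5.24 and 5.26 in HepCAV1wt males. In females it had 5.56, 5.78 and 4.96 on MCD against 5.03, 5.32 and 5.25 in HepCAV1ko and 5.54, 5.72 and 5.51 against 5.29, 5.42 and 5.02 in HepCAV1wt. Its averaged rise was 0.63 ± 0.10 (SE), adjusted p = 7.44e-05.

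Of the loading factors, Cdc6 had 4.08, 3.82 and 4.87 in MCD-fed HepCAV1ko males, against 3.14, 2.61 and 3.05 on control diet, and 3.80, 3.69 and 3.43 against 3.41, 2.91 and 3.05 in HepCAV1wt males. Female livers had 3.61, 3.17 and 3.07 on MCD against 2.73, 3.14 and 3.12 in HepCAV1ko and 3.19, 3.26 and 2.99 against 2.92, 3.38 and 2.96 in HepCAV1wt, with overlap of the diets in females of both genotypes. It rose by 1.32 ± 0.22 (SE), adjusted p = 0.000676, in HepCAV1ko males and differed by 0.52 ± 0.22 (SE), adjusted p = 0.233, in HepCAV1wt males. Cdt1, its partner in loading the helicase, rose by 0.90 ± 0.13 (SE), adjusted p = 2.3e-05, in the average. Cdc45 and the GINS subunits Gins1 and Gins2, which complete the working helicase, rose by 0.30, 0.64 and 0.47 in the average. Dbf4, which activates the kinase Cdc7 at origins, had 3.59, 3.80 and 4.00 in MCD-fed HepCAV1ko males, against 3.04, 2.72 and 2.88, and 4.41, 3.95 and 3.25 against 3.02, 3.36 and 3.36 in HepCAV1wt males. It had 3.55, 3.20 and 2.69 on MCD against 3.55, 3.17 and 2.94 in HepCAV1ko females and 3.73, 3.93 and 3.05 against 2.62, 2.88 and 2.94 in HepCAV1wt females. The diets were apart in HepCAV1ko males and in HepCAV1wt females and overlapped in the other groups, and Dbf4 passed in HepCAV1ko males (0.92 ± 0.26 (SE), adjusted p = 0.0355) and in the average (0.56 ± 0.13 (SE), adjusted p = 0.00339).

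Mcm10 went the other way. Its protein joins the helicase at the firing origin and ties it to the primase. On the MCD diet it had 5.96, 5.88 and 5.98 in HepCAV1ko males, against 6.47, 6.61 and 6.50 on control diet, and 6.11, 6.26 and 6.28 in HepCAV1wt males, against 6.76, 6.96 and 7.42. In female livers it had 5.63, 5.81 and 5.46 on MCD against 5.29, 5.68 and 5.58 in HepCAV1ko and 5.74, 5.61 and 5.28 against 5.32, 5.60 and 5.23 in HepCAV1wt. The control-fed males stood highest of all groups, the MCD-fed males lay between them and the females, and the diets overlapped in females. Mcm10 fell by 0.83 on the log2 scale in HepCAV1wt males (SE 0.16, adjusted p = 0.00262) and by 0.59 in HepCAV1ko males (SE 0.16, adjusted p = 0.0254). The call in HepCAV1ko males did not hold without control replicate 2 or 3 or without any 1 of the 3 MCD replicates, with differences from -0.63 to -0.55 over all alternatives.

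The sliding clamp, its loader, the ligase, the polymerases and the primase rose together, 7 of 7 in the average, with a median difference of 0.53. Prim1, the catalytic primase subunit, had 5.19, 4.58 and 5.53 in MCD-fed HepCAV1ko males, against 3.95, 4.70 and 4.05 on control diet, and 5.17, 5.10 and 4.97 against 3.80, 4.28 and 4.15 in HepCAV1wt males. Females had 4.998, 4.64 and 4.47 on MCD against 4.47, 3.78 and 3.83 in HepCAV1ko and 4.77, 4.66 and 4.66 against 4.37, 4.18 and 3.65 in HepCAV1wt. The diets were apart in HepCAV1wt males and females, met closely in HepCAV1ko females and overlapped by 1 array in HepCAV1ko males. Prim1 rose by 0.79 ± 0.12 (SE), adjusted p = 4.54e-05, in the average and had the largest difference of this list.

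Lig1, the ligase that joins Okazaki fragments, had 5.32, 5.37 and 5.78 in MCD-fed HepCAV1ko males, against 4.84, 4.60 and 4.66 on control diet, and 5.37, 5.40 and 5.77 against 4.15, 4.38 and 4.11 in HepCAV1wt males. Among females it had 5.60, 5.38 and 4.87 on MCD against 4.88, 4.41 and 4.66 in HepCAV1ko and 5.12, 5.33 and 4.95 against 4.98, 4.85 and 4.71 in HepCAV1wt. Control-fed HepCAV1wt females were above control-fed HepCAV1wt males on every array, and the diets overlapped by a small margin in females of both genotypes. Pcna, the sliding clamp, had 9.46, 9.54 and 9.49 in MCD-fed HepCAV1ko males, against 8.99, 8.71 and 8.57, and 9.48, 9.72 and 9.32 against 8.69, 8.85 and 8.58 in HepCAV1wt males. Female livers had 9.54, 9.51 and 9.10 on MCD against 8.96, 9.08 and 9.05 in HepCAV1ko and 9.30, 9.09 and 9.14 against 9.02, 9.38 and 9.15 in HepCAV1wt, with overlap only in HepCAV1wt. Averaged rises were 0.75 ± 0.09 (SE), adjusted p = 1.88e-06, for Lig1 and 0.47 ± 0.07 (SE), adjusted p = 3.72e-05, for Pcna. The clamp loader subunits Rfc3 and Rfc4 and the polymerase subunits Pola1 and Pole rose by 0.25, 0.48, 0.53 and 0.62 in the average, with adjusted p from 0.00139 for Pola1 to 0.0426 for Rfc3.

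Deoxynucleotide supply was split, with 1 of 4 members up, 1 down and 2 not passing. Rrm1, the large subunit of ribonucleotide reductase, had 6.16, 5.63 and 6.79 in MCD-fed HepCAV1ko males, against 5.05, 5.24 and 5.07 on control diet, and 6.33, 6.78 and 6.35 against 5.42, 5.23 and 5.23 in HepCAV1wt males. Females had 6.44, 6.21 and 5.98 on MCD against 5.28, 5.45 and 5.68 in HepCAV1ko and 5.76, 6.08 and 5.77 against 5.52, 5.76 and 5.36 in HepCAV1wt. The diets did not overlap in 3 of the 4 combinations and met in HepCAV1wt females. Rrm1 rose by 0.83 ± 0.10 (SE), adjusted p = 4.08e-06. Its partner Rrm2, the small subunit that limits the enzyme through the cycle, differed by 1.08 and 1.06 in HepCAV1ko and HepCAV1wt males and by -0.27 and 0.12 in HepCAV1ko and HepCAV1wt females. None of the 4 passed, with an SE of 0.45 for each. Tyms, thymidylate synthase, differed by 0.04 ± 0.08 (SE), adjusted p = 0.807, in the average.

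Tk1, the thymidine kinase of dividing cells, was lower on the MCD diet. It had 5.72, 6.28 and 6.45 in MCD-fed HepCAV1ko males, against 6.93, 6.53 and 6.77 on control diet, and 5.34, 6.38 and 6.58 against 7.16, 7.03 and 6.47 in HepCAV1wt males. Among females it had 6.09, 6.31 and 6.20 on MCD against 7.07, 6.70 and 6.43 in HepCAV1ko and 5.98, 6.53 and 5.86 against 6.61, 6.64 and 7.30 in HepCAV1wt. All MCD arrays lay below all control arrays in HepCAV1ko males and in females of both genotypes, and 1 array overlapped in HepCAV1wt males. Tk1 passed in the average (-0.66 ± 0.14 (SE), adjusted p = 0.00146) and in no single group. In RefSeq Tk1 (chr11:117815519-117826087) shares 585 bases at its start with Afmid (chr11:117825503-117839908), a liver enzyme of tryptophan breakdown, which was examined after the values of Tk1 were seen. Afmid differed between the diets by -1.61 in the average (adjusted p = 2.56e-06), and over the 24 arrays the signals of Tk1 and Afmid correlated with r = 0.821, or 0.636 once group means were removed. Whether the Tk1 signal holds any signal of Afmid was not tested. In all, 13 members overlap another protein-coding gene, over 7 to 5622 bases, and several overlaps of members that rose are longer than that of Tk1: 1547 bases of Lig1 with Zswim9, 863 of Ccna2 with Exosc9 and 818 of Ccnd1 with LTO1. These 3 neighbours differed between the diets by -0.04, 0.05 and -0.09 in the average, and none of them passed. Neighbours with shorter overlaps did pass: Elovl1 beside Cdc20 (0.64), Eif4a2 beside Rfc4 (-0.54), Ap4m1 beside Mcm7 (-0.31) and Ufd1 beside Cdc45 (-0.25). Sharing of signal was not tested for any of these pairs. Over the 12 pairs other than Tk1 and Afmid, r spanned -0.462 for Cdc45 and Ufd1 to 0.483 for E2f1 and Necab3. With group means removed it spanned -0.334 for Aurka and Cstf1 to 0.265 for E2f1 and Necab3.

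**Figure D2:**
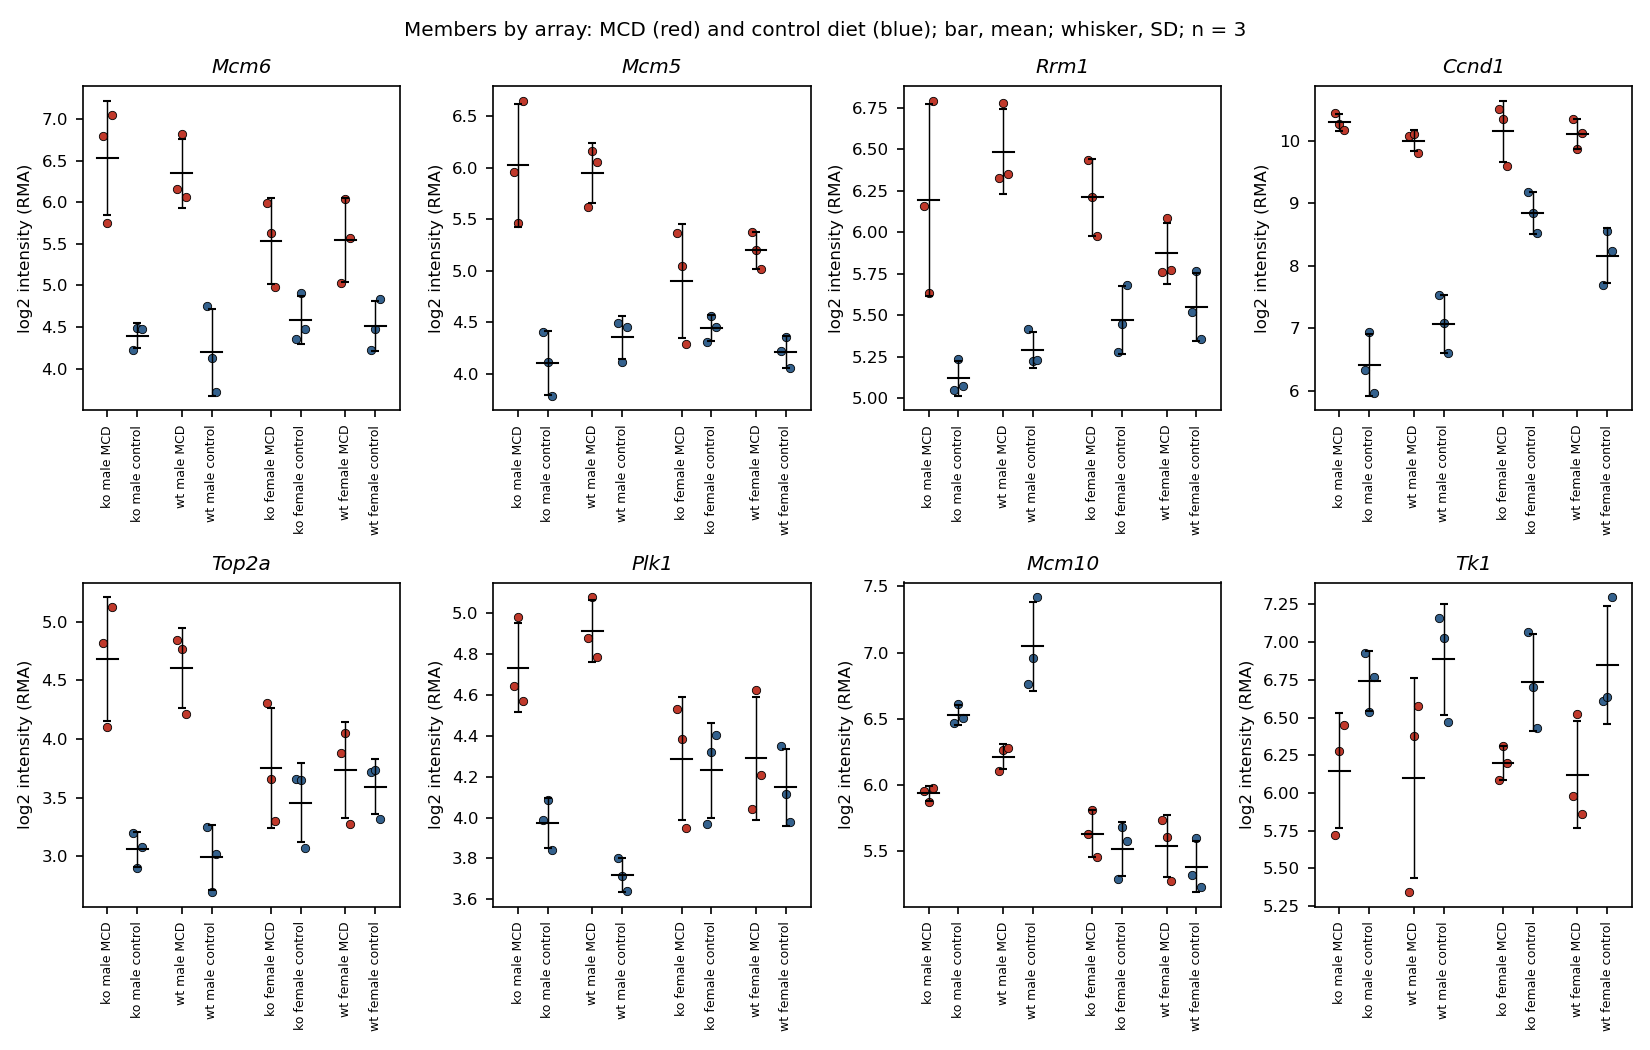
Log2 signal (y axis) of 8 members on every array, by genotype and sex (x axis) with MCD (red) left of control diet (blue); bars are means and whiskers SD of 3 arrays. Mcm6, Mcm5, Rrm1, Ccnd1, Top2a and Plk1 are higher on the MCD diet in males, whereas Mcm10 is lower in males and Tk1 is lower in the average of all groups.

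Among the cyclins and E2F factors of the first gap phase, Ccnd1 alone of 5 passed. Ccnd1 encodes cyclin D1, the partner of Cdk4 and Cdk6. It had 10.45, 10.27 and 10.18 in MCD-fed HepCAV1ko males, against 6.33, 6.94 and 5.97 on control diet, and 10.09, 10.11 and 9.81 in MCD-fed HepCAV1wt males, against 7.53, 7.08 and 6.60. In female livers it had 10.52, 10.35 and 9.60 on MCD against 9.18, 8.84 and 8.52 in HepCAV1ko and 10.35, 9.87 and 10.13 against 7.70, 8.56 and 8.24 in HepCAV1wt. The MCD arrays of all 4 combinations shared 1 narrow range and the control arrays were spread by sex, with males lower. Ccnd1 rose 14.8-fold in HepCAV1ko males (3.89 ± 0.27 (SE), adjusted p = 1.18e-08) and 7.63-fold in HepCAV1wt males (2.93 ± 0.27 (SE), adjusted p = 7.06e-07). In females it rose 2.47-fold in HepCAV1ko (1.31 ± 0.27 (SE), adjusted p = 0.013) and 3.87-fold in HepCAV1wt (1.95 ± 0.27 (SE), adjusted p = 0.000177).

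E2f1, an activator of replication genes, had 4.73, 4.46 and 4.68 in MCD-fed HepCAV1ko males, against 4.20, 4.40 and 5.02 on control diet, and 4.50, 4.78 and 4.85 against 4.26, 4.29 and 4.25 in HepCAV1wt males. In females it had 4.24, 4.20 and 4.30 on MCD against 4.19, 4.41 and 4.13 in HepCAV1ko and 4.26, 4.38 and 4.13 against 4.04, 4.20 and 4.27 in HepCAV1wt. The diets were apart in HepCAV1wt males only, and the averaged difference was 0.16 ± 0.08 (SE), adjusted p = 0.193. E2f8, a repressor of the same genes, had 5.38, 5.45 and 5.69 in MCD-fed HepCAV1ko males, against 4.47, 5.18 and 4.05, and 6.61, 5.62 and 5.97 against 4.58, 5.85 and 5.63 in HepCAV1wt males. In females it had 5.94, 6.33 and 5.03 on MCD against 4.81, 5.67 and 6.38 in HepCAV1ko and 6.78, 5.86 and 5.41 against 5.90, 6.20 and 4.79 in HepCAV1wt. The diets were apart in HepCAV1ko males and overlapped in the other groups, and the averaged difference was 0.55 ± 0.23 (SE), adjusted p = 0.0999. The E cyclins Ccne1 and Ccne2 differed by 0.27 ± 0.12 (SE), adjusted p = 0.122, and 0.14 ± 0.13 (SE), adjusted p = 0.535, and the Ccne2 gene overlaps Ints8 over 5622 bases.

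Of the 7 mitotic cyclins, kinases and the factor Foxm1, 6 rose in the average, with a median difference of 0.58. Ccna2, cyclin A2, had 4.28, 3.94 and 3.61 in MCD-fed HepCAV1ko males, against 2.96, 3.07 and 2.88 on control diet, and 4.61, 4.64 and 4.25 against 2.79, 3.00 and 3.10 in HepCAV1wt males. Female livers had 4.05, 3.45 and 2.95 on MCD against 3.41, 3.40 and 3.23 in HepCAV1ko and 3.69, 4.27 and 3.83 against 2.74, 3.61 and 3.27 in HepCAV1wt. Only HepCAV1ko females had overlapping diets. Ccna2 rose by 0.97 ± 0.24 (SE), adjusted p = 0.0139, in HepCAV1ko males and by 1.54 ± 0.24 (SE), adjusted p = 0.000346, in HepCAV1wt males.

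Cdk1, the kinase that starts mitosis, had 4.43, 3.88 and 5.17 in MCD-fed HepCAV1ko males, against 3.49, 3.94 and 3.31 on control diet, and 4.53, 5.04 and 4.20 against 3.44, 3.75 and 3.38 in HepCAV1wt males. In female livers it had 4.21, 3.85 and 3.60 on MCD against 3.37, 3.50 and 3.48 in HepCAV1ko and 3.80, 4.26 and 3.49 against 3.20, 3.81 and 3.82 in HepCAV1wt. Replicate 2 of the MCD-fed HepCAV1ko males lay within their controls. The rise was 0.66 ± 0.14 (SE), adjusted p = 0.00126, in the average. Plk1, a kinase of spindle assembly, had 4.65, 4.98 and 4.57 in MCD-fed HepCAV1ko males, against 3.99, 4.09 and 3.84, and 4.88, 5.08 and 4.78 against 3.80, 3.71 and 3.64 in HepCAV1wt males. Females had 4.53, 4.39 and 3.95 on MCD against 3.97, 4.32 and 4.40 in HepCAV1ko and 4.04, 4.62 and 4.21 against 4.35, 4.12 and 3.98 in HepCAV1wt. The diets were apart in males and overlapped in females. Plk1 rose by 0.76 ± 0.17 (SE), adjusted p = 0.00761, in HepCAV1ko males and by 1.19 ± 0.17 (SE), adjusted p = 0.000173, in HepCAV1wt males. Ccnb2 (cyclin B2), Aurka (a centrosome kinase) and Foxm1 (a transcription factor of mitosis genes) rose by 0.55, 0.58 and 0.62 in the average. Foxm1 differed by 0.68, 0.65, 0.60 and 0.55 in HepCAV1ko males, HepCAV1wt males, HepCAV1ko females and HepCAV1wt females, nearly the same value in both sexes. Aurkb, the kinase of the chromosomal passenger complex, did not pass (0.14 ± 0.10 (SE), adjusted p = 0.391).

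Of the 8 spindle checkpoint, chromosome and spindle genes, 4 rose in the average (Top2a, Mki67, Bub1b and Cenpe) and 4 did not pass (Bub1, Cdc20, Birc5 and Kif11), with a median difference of 0.30. Top2a, the topoisomerase that disentangles sister chromatids, had 4.82, 4.10 and 5.13 in MCD-fed HepCAV1ko males, against 3.20, 2.90 and 3.08 on control diet, and 4.84, 4.76 and 4.21 against 3.25, 2.70 and 3.02 in HepCAV1wt males. Among females it had 4.30, 3.66 and 3.30 on MCD against 3.66, 3.65 and 3.07 in HepCAV1ko and 3.88, 4.05 and 3.28 against 3.72, 3.73 and 3.32 in HepCAV1wt. Males were apart by diet and females overlapped. Top2a rose by 1.62 ± 0.27 (SE), adjusted p = 0.00065, in HepCAV1ko males and by 1.62 ± 0.27 (SE), adjusted p = 0.000903, in HepCAV1wt males.

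Mki67, which encodes the proliferation antigen Ki-67, had 5.63, 5.28 and 5.06 in MCD-fed HepCAV1ko males, against 4.18, 4.34 and 4.80 on control diet, and 5.57, 5.60 and 5.07 against 4.50, 4.46 and 3.86 in HepCAV1wt males. Female livers had 5.50, 4.86 and 4.74 on MCD against 5.09, 4.65 and 4.57 in HepCAV1ko and 4.97, 5.28 and 4.79 against 4.78, 4.95 and 4.67 in HepCAV1wt. The diets overlapped in females of both genotypes. Mki67 rose by 0.88 ± 0.23 (SE), adjusted p = 0.0206, in HepCAV1ko males and by 1.14 ± 0.23 (SE), adjusted p = 0.00417, in HepCAV1wt males, and differed by 0.26 and 0.21 in HepCAV1ko and HepCAV1wt females. The checkpoint kinase Bub1b and the kinetochore motor Cenpe rose by 0.34 ± 0.08 and 0.40 ± 0.08 (SE), adjusted p = 0.00353 and 0.000484. The checkpoint kinase Bub1, the anaphase activator Cdc20, survivin (Birc5) and the spindle motor Kif11 differed by 0.15, 0.21, 0.22 and 0.26.

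The diet difference was larger in males than in females for 42 of the 44 members when genotypes were averaged, for 41 in HepCAV1ko and for 36 in HepCAV1wt. The median member differed by 0.81 in males and 0.24 in females. The difference of the 2 sexes' diet effects, male minus female, had a median of 0.54 over the members and 0.00 over all genes. Under that test 3 members were called higher, Ccnd1, Top2a and Plk1, beside 0.316% of all genes, and 1 lower, Mcm10, beside 0.219% of all genes. At an unadjusted p under 0.05, 24 members were higher, beside 4.33% of all genes. The values were 1.78 ± 0.27 (SE), adjusted p = 0.0012, for Ccnd1, 1.40 ± 0.27 (SE), adjusted p = 0.0133, for Top2a, 0.88 ± 0.17 (SE), adjusted p = 0.0126, for Plk1 and -0.85 ± 0.16 (SE), adjusted p = 0.00829, for Mcm10. Leaving out 1 array at a time gave 4 to 7 calls, with 7 without MCD replicate 2 of the HepCAV1ko males. The median over the members lay between 0.397 and 0.617 in these fits. The median diet difference in HepCAV1ko females alone spanned 0.09 to 0.406 in the same way. Members moved together within groups, as described further on, so the 44 are not separate observations.

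**Figure D3:**
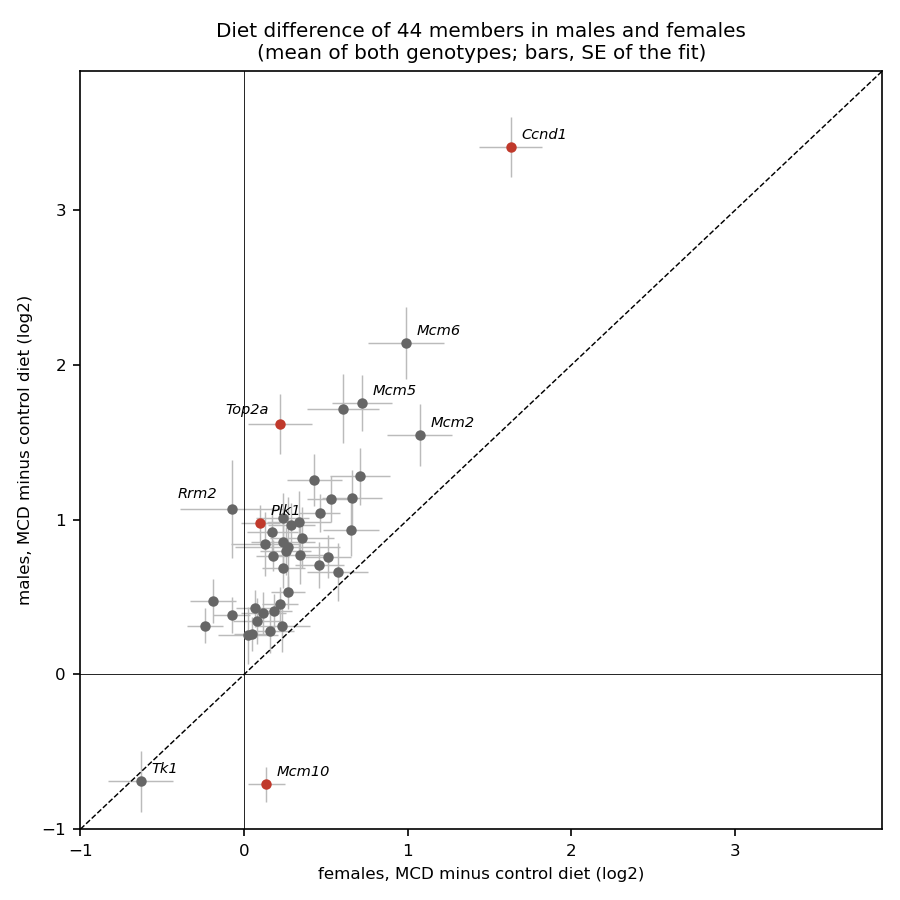
Diet difference (log2, MCD minus control, mean of both genotypes) of the 44 members in males (y axis) and in females (x axis); bars are SE and the dashed line marks equal differences. All points but 2, Mcm10 and Tk1, lie above the line; Ccnd1, Top2a, Plk1 and Mcm10 (red) passed the test of the difference between sexes.

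Males and females were also set against each other within each diet. On the control diet 1 member was higher in males, Mcm10 (1.34 ± 0.11 (SE), adjusted p = 3.08e-08), beside 1.54% of all genes. There 2 were lower in males, Ccnd1 (-1.76 ± 0.19 (SE), adjusted p = 2.66e-06) and Pcna (-0.37 ± 0.10 (SE), adjusted p = 0.0386), beside 1.91% of all genes, and the median member differed by -0.09. The Pcna call was lost in 8 of 12 fits that left out 1 control array. On the MCD diet Ccnd1 differed between males and females by 0.01 ± 0.19 (SE), adjusted p = 0.993, with male and female arrays interleaved between 9.60 and 10.52.

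On the MCD diet 6 members were higher in males, beside 0.267% of all genes, and none was lower, beside 0.271% of all genes. They were Mcm5 (0.93 ± 0.18 (SE), adjusted p = 0.0138), Top2a (0.90 ± 0.19), Cdc6 (0.73 ± 0.16), Mcm7 (0.67 ± 0.14), Plk1 (0.53 ± 0.12) and Mcm10 (0.49 ± 0.11), with adjusted p between 0.0138 and 0.0468. The median member was 0.37 higher in males, the difference was above 0 for 42 of 44 members, and it was above 0 in each genotype for 38. The count of 6 rested on single arrays: it was 0 without replicate 2 and 2 without replicate 1 of the MCD-fed HepCAV1wt males, 2 without replicate 1 or 3 of the MCD-fed HepCAV1ko males, 3 without replicate 1 and 1 without replicate 3 of the MCD-fed HepCAV1wt females, and 3 without replicate 2 and 1 without replicate 3 of the MCD-fed HepCAV1ko females. The median difference stayed between 0.31 and 0.44 in these fits.

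No member was called for genotype. The diet effect of HepCAV1ko minus that of HepCAV1wt had a median of -0.01 over the members and an SE of 0.14 to 0.45, and at an unadjusted p under 0.05 it passed for 2 of 44, beside 3.3% of all genes. These were Ccna2 (-0.58 ± 0.24, SE) and Cdc6 (0.52 ± 0.22, SE), both with an adjusted p of 1.0. On the control diet 1 member passed unadjusted, Mcm2 (0.42 ± 0.20 (SE), adjusted p = 0.947), beside 5.13% of all genes. On the MCD diet 2 passed unadjusted, Ccna2 (-0.50 ± 0.17 (SE), adjusted p = 1.0) and Cdc6 (0.38 ± 0.16 (SE), adjusted p = 1.0), beside 3.07% of all genes. Control-fed HepCAV1ko and HepCAV1wt livers differed in Ccnd1 by -0.66 ± 0.27 in males and 0.68 ± 0.27 in females (SE), in opposite directions. The test of that difference between sexes gave -1.34 ± 0.39 (SE), adjusted p = 0.704. The diet effect on Ccnd1 was larger in HepCAV1ko than in HepCAV1wt males by 0.96 ± 0.39 (SE), adjusted p = 0.998. A p that misses the threshold does not show that genotypes were alike.

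The members moved together from array to array within groups. With group means removed, a member correlated with the mean of the other members with a median r of 0.559 over the 24 arrays, from -0.295 for Tyms and -0.293 for Cdc20 to 0.849 for Mcm2 and 0.885 for Mcm3, and the median r of all genes with the mean of the members was -0.0178. Tk1 had r = 0.056 and Mcm10 0.279. The arrays of 1 group share their diet, sex and genotype, and these values are descriptions. The mean of the members also ran with the replicate number. Replicate 2 lay above its group mean and replicate 3 below it in every group but MCD-fed HepCAV1ko males. There replicate 2 lay at -0.236 and replicate 3 at 0.217 from the group mean. Whether a factor shared by replicate number adds to these correlations was not tested. The genes outside all lists that followed the mean of the members most closely were Hells (r = 0.859), Ncapg2 (0.853), Slfn9 (0.841), Dtl (0.831), Arhgap11a (0.809) and Ddias (0.804), followed by Pla2g4a, 4930486F22Rik, Zyg11b and Dse at 0.786 to 0.792. Hells is a chromatin remodeller, Ncapg2 a condensin subunit and Dtl a receptor for the degradation of Cdt1. The first 6 rose on the MCD diet in the average, by 0.69 for Ddias to 1.19 for Hells, and the other 4 did not pass.

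Each array is summed up by its mean deviation, the mean over the 44 members of the log2 signal minus the gene's mean of all 24 arrays. It was 0.52, 0.27 and 0.72 in MCD-fed HepCAV1ko males, against -0.42, -0.32 and -0.41 on control diet, and 0.44, 0.66 and 0.35 in MCD-fed HepCAV1wt males, against -0.29, -0.25 and -0.39. In HepCAV1ko females it was 0.37, 0.10 and -0.28 on MCD against -0.20, -0.17 and -0.20, and in HepCAV1wt females 0.12, 0.23 and -0.04 on MCD against -0.36, -0.14 and -0.30. Replicate 3 of the MCD-fed HepCAV1ko females lay below all 3 of its controls, and it was the lowest of its group for 37 of 44 members while replicate 1 was the highest for 34. Replicate 3 also had the lowest deviation of its group for the macrophage list (-0.33, against 0.63 and 0.24 on the others), the lipid-associated macrophage list (-0.21, against 1.48 and 0.56) and the stellate cell list (-0.10, against 0.42 and 0.04). In MCD-fed HepCAV1wt males replicate 3 was lowest for the members (0.35) and for the macrophage (-0.37), lipid-associated macrophage (-0.12) and stellate cell lists (0.04). Replicate 2 of that group was highest for the members (0.66), the macrophage list (0.47) and the lipid-associated macrophage list (1.31). Members and markers did not run together in every MCD group. Replicate 3 of the MCD-fed HepCAV1ko males was the highest of its group for the members (0.72) and the lowest for the lipid-associated macrophage list (0.70, against 1.27 and 1.21) and the stellate cell list (0.14, against 0.59 and 0.57). Replicate 3 of the MCD-fed HepCAV1wt females was the lowest for the members (-0.04) and the highest for the macrophage list (0.61, against 0.25 and 0.41).

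**Figure D4:**
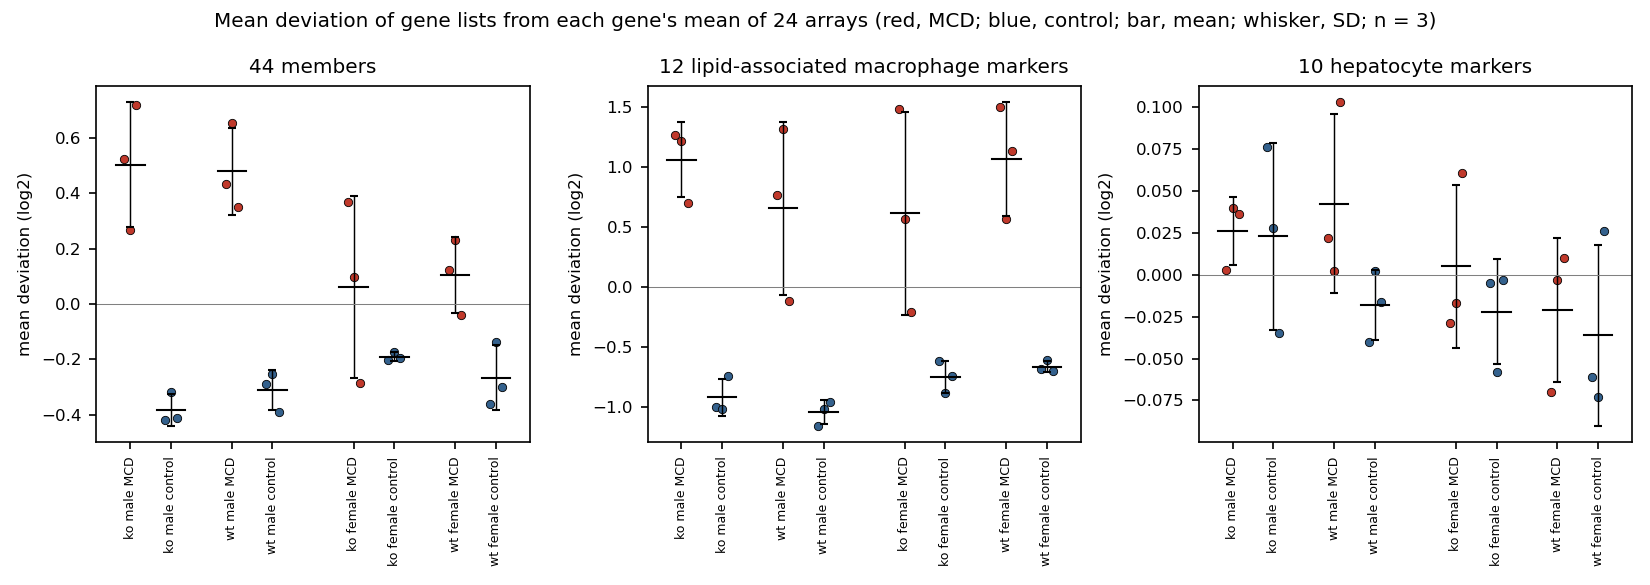
Mean deviation (y axis, log2) of the 44 members, of 12 lipid-associated macrophage markers and of 10 hepatocyte markers on every array, by genotype and sex (x axis) with MCD (red) left of control diet (blue); bars are means and whiskers SD of 3 arrays. The members reach 0.72 in MCD-fed males and 0.37 in MCD-fed females, the macrophage markers reach 1.31 in MCD-fed males and 1.50 in MCD-fed females, and the hepatocyte markers lie between -0.07 and 0.10.

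Other genes of the same processes, held in separate lists, moved with the diet in part. Beside the averaged counts of these and the following lists, 9.79% of all genes rose and 9.39% fell. Of 39 other replication genes, 13 rose and 1 fell (Pola2) in the average, with a median difference of 0.15. The largest rises were those of Chaf1b (0.72 ± 0.10 (SE), adjusted p = 9.55e-06), a subunit of the assembly factor that puts histones on new DNA, Uhrf1 (0.57 ± 0.13), which keeps DNA methylation on new strands, and Dctd (0.44 ± 0.10), a deaminase of deoxycytidylate. In single groups 4 rose in HepCAV1ko males, 3 in HepCAV1wt males and none in females of either genotype. Of 50 other mitosis genes, 30 rose and none fell in the average, with a median of 0.30. They were led by Ect2 (1.35 ± 0.17 (SE), adjusted p = 3.34e-06), Mad2l1 (0.84 ± 0.13), a spindle checkpoint protein, and Smc2 (0.84 ± 0.10), a condensin subunit. There 15 rose in HepCAV1ko males, 17 in HepCAV1wt males and 1 each in HepCAV1ko females (Ube2c) and HepCAV1wt females (Ckap2l). Of all genes, 3.62% rose in HepCAV1ko males, 2.28% in HepCAV1wt males, 0.765% in HepCAV1ko females and 2.59% in HepCAV1wt females. The counts of both lists in females are near these shares.

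Inhibitors of the cycle moved as well. Of 12 inhibitors and pocket proteins, 4 rose and 1 fell (Rbl2) in the average. Cdkn1a, the p21 inhibitor of cyclin-dependent kinases, rose by 1.56 ± 0.16 (SE), adjusted p = 4.21e-07, Rbl1, a pocket protein that binds E2F factors, by 1.03 ± 0.10 (SE), adjusted p = 9.61e-08, and Btg2, an antiproliferative factor, by 0.78 ± 0.13 (SE), adjusted p = 0.000131. Cdkn1a differed by 1.55 and 1.50 in HepCAV1ko and HepCAV1wt males and by 1.23 and 1.96 in HepCAV1ko and HepCAV1wt females, and its diet effect differed between sexes by -0.08 ± 0.33 (SE), adjusted p = 0.975. Of 15 other regulators of the step into replication, 4 rose and 1 fell (E2f5). Myc, a transcription factor of growth, rose by 1.34 ± 0.25 (SE), adjusted p = 0.000498, Cdk6, a partner of cyclin D, by 0.73 ± 0.10 (SE), adjusted p = 1e-05, and Cdc25a, a phosphatase that activates cyclin-dependent kinases, by 0.57 ± 0.10 (SE), adjusted p = 0.000192.

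Markers of other cells of the liver moved with the diet beside the members, and their part in the result was not tested. Of 12 lipid-associated macrophage markers, 11 rose and 1 fell (Fabp5) in the average, with a median of 1.61, led by Mmp12 (5.22 ± 0.40) and Gpnmb (3.21 ± 0.47). The median difference was 1.70 in HepCAV1ko males, 1.44 in HepCAV1wt males, 1.28 in HepCAV1ko females and 1.51 in HepCAV1wt females. The sex difference of the diet effect had a median of 0.18 in this list, with 1 of 12 called, against 0.54 in the members. Of 12 macrophage markers 6 rose and 1 fell (Timd4), led by Cd68 (1.39 ± 0.14) and Marco (1.30 ± 0.25), and of 13 stellate cell markers 11 rose, led by Pdgfra (1.26 ± 0.10) and Dcn (1.00 ± 0.07). Their sex differences of the diet effect had medians of 0.21 and 0.23, with none of either list called. In that test 0.316% of all genes were called higher and 0.219% lower. Lists of this length without a call are not set apart from such shares.

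The summed linear signal of the lipid-associated macrophage markers spanned 3730 to 5300 in MCD-fed HepCAV1ko males, against 1350 to 1600 on control diet, and 2570 to 5300 in MCD-fed HepCAV1wt males, against 1290 to 1530. It spanned 2440 to 5820 in MCD-fed HepCAV1ko females, against 1660 to 1800, and 3540 to 5320 in MCD-fed HepCAV1wt females, against 1510 to 1820. In the average, where 9.79% of all genes rose and 9.39% fell, hepatocyte markers passed for 2 of 10 (Apob by 0.16 ± 0.05 and Ahsg by 0.14 ± 0.05). This list and those that follow are short, and their counts are not set apart from the shares of all genes. Fewer markers of other cells passed: 2 of 7 for cholangiocytes (Prom1 by 0.71 ± 0.18 and Sox9 by 0.50 ± 0.13), 2 of 10 for endothelium (Lyve1 by 0.68 ± 0.09 and Eng by 0.33 ± 0.09), 1 of 11 for lymphocytes (Ptprc by 0.79 ± 0.16), 2 of 8 for neutrophils (Retnlg by 0.48 ± 0.12 and S100a8 by 0.31 ± 0.09), and 1 up and 1 down of 7 for erythroid cells (Tfrc by 0.96 ± 0.21 and Klf1 by -0.73 ± 0.08).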

How the data were processed

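Total RNA of whole liver was hybridised to Affymetrix MoGene 2.0 ST arrays, 24 in all. The authors deposited 1 table of log2 expression values, normalised with RMA (background correction, quantile normalisation and probe summary), with 1 column per array. RMA equalises the arrays' distributions, so a change shared by all genes is not seen, and the number of arrays limits the precision. Of 25428 features, 24705 had 1 gene symbol in the platform annotation, 723 stayed unnamed, and 24704 named genes were tested.

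A model with 1 mean per group was fitted in limma 3.58.1 (R 4.3.3) with empirical Bayes variances, on all 24 arrays. P-values are two-sided and were adjusted by the Benjamini-Hochberg method over all tested genes, with a threshold of 0.05. The study's methods name a two-sided t-test in general and no test for the arrays, so that t-test was run as an alternative, beside other variances, weights, centrings, filters, a replicate block and fits without single arrays. The members and lists were chosen with earlier results of these data known, so their counts are descriptions, and no list was tested as a set. Array values are given for the 2 members of each role list with the largest averaged diet difference, for members called for sex or in the diet by sex test, called downwards, or called for genotype, and for Mki67, Ccnd1, E2f1 and Dbf4. Of the other lists the 3 (pathways) or 2 (cell types) called genes with the largest difference are named, beside genes that fell, and the 10 genes outside all lists that followed the members most closely. The fit was tested on simulated data. Promoters came from RefSeq tables of GRCm38.p6.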

Additional observations from a re-analysis of the deposited data

Results flagged for a closer look

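In 4 members the diet effect differed between males and females by a test of that difference (limma, Benjamini-Hochberg over all named genes, 12 male and 12 female arrays). It was 1.78 ± 0.27 for Ccnd1, 1.40 ± 0.27 for Top2a, 0.88 ± 0.17 for Plk1 and -0.85 ± 0.16 for Mcm10 (log2, males minus females, SE). In Ccnd1 the sexes differed on the control diet (-1.76 ± 0.19) and by 0.01 on the MCD diet. In Top2a and Plk1 they differed by 0.90 and 0.53 on the MCD diet. In Mcm10 males were higher by 1.34 ± 0.11 on the control diet and by 0.49 ± 0.11 on the MCD diet.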

How the results depend on the processing

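The counts of members called, both directions together, were recomputed under other settings. The methods' t-test with Benjamini-Hochberg adjustment called 0 members, and 1 of all 24704 genes, in each of the 4 combinations of genotype and sex. Unadjusted it called 29 members in HepCAV1ko males (15.3% of all genes), 28 in HepCAV1wt males (12.9%), 4 in HepCAV1ko females (9.76%) and 10 in HepCAV1wt females (13.4%), and 4 of 44 is near the share of all genes. In HepCAV1ko females, against 1, array weights gave 4, where 357 of all genes rose and 376 fell (189 and 217 in the main fit). Testing only genes above the median expression gave 3 of 28 members there, where 255 of 12352 genes rose and 300 fell. A fit on the compared arrays alone gave 0 (11 unadjusted, beside 11.4% of all genes). In the average, testing only genes above the median expression gave 21 of 28 members, against 33 of 44. There 2172 of 12352 genes rose and 2334 fell, against 2419 and 2319 of 24704. Centring on hepatocyte markers gave 2 members between the sexes on the MCD diet, against 6. With it 43 of all genes were higher and 85 lower in males, against 66 and 67. Without 1 array at a time the counts spanned 17 to 27 in HepCAV1ko males, 14 to 22 in HepCAV1wt males, 0 to 6 in HepCAV1ko females, 1 to 5 in HepCAV1wt females, 32 to 35 in the average, 4 to 7 for the diet effect between sexes, 2 to 3 between sexes on the control diet and 0 to 6 on the MCD diet, and 0 to 0 for each genotype comparison. Calls over all genes moved too. In HepCAV1wt males 332 of all genes rose and 333 fell without control replicate 1, where 14 members passed, against 563 and 516. The causes were not tested.

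With the replicate block the counts were 26, 19, 1 and 4 in HepCAV1ko males, HepCAV1wt males, HepCAV1ko females and HepCAV1wt females, 33 in the average, 5 for the diet effect between sexes, 0 for that between genotypes, and 4 and 6 between sexes on the control and MCD diet. The labels do not say that a replicate number marks a shared animal, litter or day, so the main fit did not treat the arrays as paired. The deviations of 84 same-numbered pairs correlated between -0.138 and 0.251 (median 0.033, 16 above 0.1), those of 168 other pairs between -0.286 and 0.152 (median -0.005, 7 above 0.1), and 17 of 24 arrays correlated best with their own number, a hint from the data of a shared factor and not from the design. None of 33 results on single members reversed in sign, but several lost their call. Between sexes on the MCD diet, Mcm10 lost it in 12 of 18 alternatives, Plk1 in 11 of 18 and Cdc6 in 9 of 17. The fall of Mcm10 in HepCAV1ko males lost it in 7 of 15. The 18 averaged diet calls of named members held under every alternative. The diet effect between sexes on Mcm10 had adjusted p = 0.0618 with hepatocyte centring.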
